A study of Homo sapiens with 8 samples.

Results

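MYC and the MAX network are described here through 10 genes taken by symbol from the 63677 genes of the deposited tables: MYC, MAX, MXD1, MXD3, MXD4, MXI1, MNT, MGA, MLX and MLXIP. All 10 were found in the count tables of both cell lines, and all 10 passed the filter on low counts in each comparison. Their transcripts were measured by RNA sequencing in DND-41 and MOLT-4, established lines grown from human T-cell acute lymphoblastic leukaemia. Cells of each line received 100 nM ACBI-1 or the solvent DMSO, and total RNA was taken 24 h later. ACBI-1 is a PROTAC that recruits the ubiquitin ligase VHL to SMARCA2, SMARCA4 and PBRM1, subunits of chromatin remodelling complexes. Those proteins were not measured, and transcript counts are no check of their loss. The 4 groups were therefore DND-41 with ACBI-1, DND-41 with DMSO, MOLT-4 with ACBI-1 and MOLT-4 with DMSO, each with 2 libraries and with no other allele or agent named in the labels. The labels do not say whether the 2 libraries of a group came from separate cultures, so the p-values cover the spread between those libraries alone, which can be technical.

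MYC is a basic helix-loop-helix leucine zipper protein that binds DNA as a heterodimer with MAX at E-box sequences and activates genes of ribosome production, nucleotide synthesis and cell growth. The MXD proteins, MNT and MGA also pair with MAX and bind the same kind of site, where MXD and MNT proteins bring the SIN3-HDAC corepressor. MLX pairs with the glucose-responsive protein MLXIP and with some of the repressors. In T-cell leukaemia, MYC is known as a target of NOTCH1.

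The promoters of 3 network genes carry the canonical E-box themselves, and they are shown because they hold the sequence at which the proteins of the network bind. RefSeq promoter windows, each from 250 bases before to 50 bases after a gene start in GRCh38.p14, were found for 9 of the 10 genes. The motif CACGTG, which reads the same on both strands, was searched in each, and it was found in MLX, MNT and MXD4 but in no window of MAX, MXD1, MXD3, MXI1, MGA or MLXIP. Of all 35116 windows, 2548 hold it (7.26%), and the 9 genes have 14 windows. Counted by gene, 3 of the 9 hold it, beside 2396 of all 27305 genes with a window (8.77%). Among the 9277 genes with a window that were tested in MOLT-4, the share is 13%. The stretches below run 5′ to 3′ on the strand of the gene, stop before the first annotated exon base, and have the E-box in capitals. They lie at chr17:42566850-42567067 (plus strand, MLX), chr17:2401119-2401310 (minus strand, MNT) and chr4:2262295-2262359 (minus strand, MXD4).
MLX: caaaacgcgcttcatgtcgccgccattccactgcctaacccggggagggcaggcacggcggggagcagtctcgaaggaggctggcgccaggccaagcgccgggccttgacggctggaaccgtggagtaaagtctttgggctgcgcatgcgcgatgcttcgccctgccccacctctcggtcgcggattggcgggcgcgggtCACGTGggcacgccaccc
MNT: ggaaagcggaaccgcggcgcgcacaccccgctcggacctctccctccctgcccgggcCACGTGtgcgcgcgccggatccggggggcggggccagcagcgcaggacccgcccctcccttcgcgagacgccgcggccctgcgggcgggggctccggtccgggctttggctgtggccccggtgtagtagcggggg
MXD4: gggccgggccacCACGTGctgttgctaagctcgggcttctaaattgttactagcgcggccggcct
The E-box starts 50 bases before the RefSeq start of MLX, 193 before that of MNT and 238 before that of MXD4. A match is a description of the letters and not of bound protein. These genes behaved differently with ACBI-1 in MOLT-4, as given below: MLX fell, MNT had a log2 fold change of 0.01, and MXD4 moved by less than the choice of scaling.

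The libraries had totals of 21308737 to 22067644 counts. In MOLT-4, libraries of the same group differed by 1.52 and 2.65 times the counting noise (chi-square per degree of freedom), and libraries of different groups by 49.4 to 50.8. In DND-41 the libraries with the same number differed by 5.49 and 5.09, and all other pairs, including both pairs with the same treatment in their labels, by 63.2 to 75.5. The log2 fold changes in the authors' deposited DND-41 table equalled, within 0.001, those of libraries numbered 2 over libraries numbered 1 for 100% of 14883 genes, and those of labelled ACBI-1 over DMSO for 0.2755%. The treatment behind the DND-41 numbers cannot be told from these files, so each DND-41 result is given by the labels and, separately, by that table. Levels are given in CPM, the usual depth-scaled unit, which sets a count against the TMM-adjusted library total. Of 8 T-lineage markers all were detected in both lines, with a summed level of 3219 to 3514 CPM in DND-41 and 2255 to 2500 CPM in MOLT-4. That sum hides unequal changes. In MOLT-4 with ACBI-1, 5 of the 8 fell (62.5%, against 30.2% of all genes). Of the rest, 2 rose (25%, against 28.2% of all genes) and 1 did not pass. The 4 with the smallest adjusted p were CD7 at -2.63, CD2 at -1.92, CD1A at -1.71 and CD3G at 0.64 on the log2 scale. Myeloid and erythroid markers summed to between 0.0468 and 0.37 CPM.

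MYC, the activator of the network, fell in MOLT-4 with ACBI-1. Its level was 337 and 329 CPM in the ACBI-1 libraries against 549 and 535 CPM in the DMSO libraries. Both treated libraries lay below both solvent libraries, by more than the spread within either group. The log2 fold change was -0.70 (SE 0.0352, edgeR quasi-likelihood test, adjusted p = 3.16e-21, n = 2 per group), or 1.62-fold lower. The T-lineage markers given above changed in the same libraries, and CD79A, a B-cell receptor chain, fell from 4.56 and 4.57 CPM to 0.512 and 0.277 CPM; their part in the MYC result was not tested. RNA of a whole culture cannot tell fewer MYC-expressing cells from less MYC RNA per cell. MAX, the partner shared by nearly all of these proteins, fell too, from 143 and 141 CPM to 106 and 105 CPM (edgeR log2 fold change -0.42, adjusted p = 7.31e-12, SE 0.0415).

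In MOLT-4, 1 of the 10 genes passed as higher and 6 as lower with edgeR, and 3 did not reach the threshold of 0.05. Over all 14618 genes tested, 28.2% were higher and 30.2% lower, so calls were common in this line. The median log2 fold change of the 10 genes was -0.26, beside 0.0087 for all genes. Replacing TMM by total-count scaling shifted the median of all genes by 0.119 on the log2 scale and turned 4120 higher and 4413 lower calls into 5804 and 3031. Under that scaling MYC, MAX, MXD1, MLX and MLXIP remained lower and MXD3 remained higher. With the spread estimated over all 8 libraries, which includes the divergent DND-41 pairs, 1 of the 10 genes passed, MAX (edgeR adjusted p = 0.0487), while MYC kept its log2 fold change of -0.70 but not its call (adjusted p = 0.53).

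**Figure D1:**
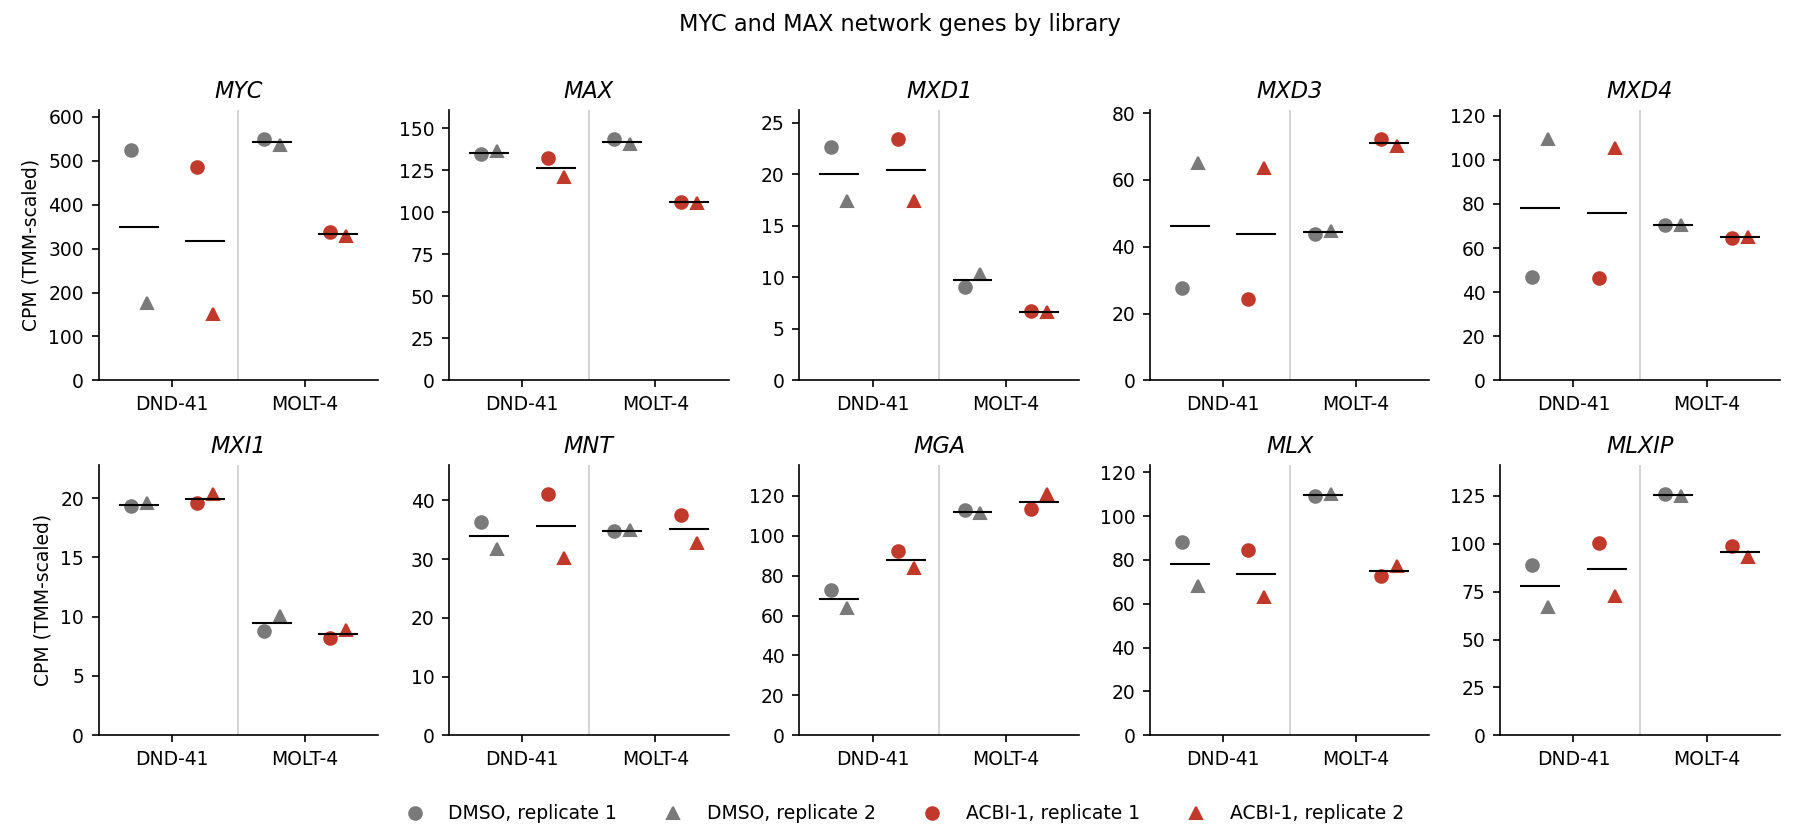
Level of each of the 10 genes (CPM, vertical axis from 0) in the 8 libraries, with DMSO in grey, ACBI-1 in red, circles for replicate 1, triangles for replicate 2 and bars for group means. In MOLT-4 MYC drops from 549 and 535 to 337 and 329 CPM while MXD3 climbs from 43.8 and 44.8 to 72.2 and 70.0 CPM, and in DND-41 the circles and triangles of MYC, MXD3 and MXD4 stand apart whatever the label.

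Among the repressors that compete with MYC for MAX, MXD3, an MXD family member linked to proliferating cells, was the gene that rose in MOLT-4. It was at 72.2 and 70.0 CPM with ACBI-1 and at 43.8 and 44.8 CPM with DMSO. The groups did not overlap, and the log2 fold change was 0.68 (edgeR adjusted p = 6.48e-15, SE 0.0532), 1.61-fold higher. The annotation places PRELID1, a mitochondrial lipid transfer gene, on the opposite strand over 1158 bases of MXD3. PRELID1 held 157% as many counts as MXD3 in MOLT-4 and fell by 0.83 on the log2 scale, and the strand setting of the counting is not given in the sources used here. RAB24, on the same strand, held 7.42% as many counts as MXD3. The part of either neighbour in the MXD3 counts was not tested.

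MXD1, the MXD member best known from differentiating blood cells, fell from 9.07 and 10.3 CPM to 6.70 and 6.61 CPM in MOLT-4 (edgeR log2 fold change -0.54, adjusted p = 0.000176, SE 0.121). Its counts were few, 143 to 208 per MOLT-4 library. SNRNP27, a splicing factor gene that overlaps MXD1 by 237 bases on the same strand, held 385% as many counts and had a log2 fold change of -0.13 (edgeR adjusted p = 0.0942). How many reads were shared was not tested.

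MXD4, a repressor associated with resting and differentiated cells, was at 64.5 and 65.2 CPM with ACBI-1 and at 70.3 and 70.2 CPM with DMSO. The difference was small, with a log2 fold change of -0.11 (edgeR adjusted p = 0.0473, SE 0.0495). The call was lost in 9 of 11 other settings, among them the removal of any 1 library (edgeR adjusted p = 0.0758 to 0.185) and total-count scaling, where the value was 0.0061 (adjusted p = 0.927). MXI1, also known as MXD2, was at 8.23 and 8.92 CPM against 8.82 and 10.1 CPM, with overlapping groups (edgeR log2 fold change -0.14, adjusted p = 0.318, SE 0.116).

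MNT, the broadly expressed antagonist of MYC, was at 37.5 and 32.7 CPM with ACBI-1 and at 34.7 and 34.9 CPM with DMSO in MOLT-4. The treated libraries lay on either side of the solvent libraries (edgeR log2 fold change 0.01, adjusted p = 0.879, SE 0.0661). MGA, a large protein that joins MAX to a Polycomb repressive complex, was at 114 and 121 CPM against 113 and 111 CPM. Both treated libraries were the higher ones, yet the log2 fold change of 0.07 (SE 0.0433) did not pass (edgeR adjusted p = 0.183), and only under total-count scaling did it pass, at 0.19 (adjusted p = 0.000172).

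The MLX arm fell with MYC. MLX, the partner of MLXIP, was at 72.7 and 77.2 CPM with ACBI-1 and at 109 and 110 CPM with DMSO (edgeR log2 fold change -0.55, adjusted p = 7.75e-14, SE 0.0459). PSMC3IP on the opposite strand held 19.0% as many counts as MLX in MOLT-4, and its log2 fold change was 0.31. MLXIP, which carries the activation domain of that dimer, fell from 126 and 125 CPM to 98.8 and 92.9 CPM (edgeR log2 fold change -0.39, adjusted p = 2.94e-10, SE 0.0436). TXNIP and ARRDC4, textbook targets of MLXIP and MLX that restrain glucose uptake, did not fall in MOLT-4. TXNIP rose slightly, from 78.6 and 70.7 to 81.0 and 81.4 CPM (log2 fold change 0.12, edgeR adjusted p = 0.0325), and ARRDC4 had a log2 fold change of 0.17 (edgeR adjusted p = 0.164). In DND-41 by the labels TXNIP was at -0.06 and ARRDC4 at -0.10, and neither passed. In the authors' deposited DND-41 table ARRDC4 is lower in libraries numbered 2 (-1.15, DESeq2 adjusted p = 1.41e-10), and TXNIP is at 0.10 (adjusted p = 0.506).

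The relatives outside the 10 genes were scarce. MYCN, a MYC paralog usually active in neural and embryonic cells, had 34 and 54 counts in the treated and 115 and 92 in the solvent libraries of MOLT-4, and fell by a log2 fold change of -1.33 (edgeR adjusted p = 2.25e-07). It had 0 counts in all DND-41 libraries. MYCL, another paralog, had 13 and 19 counts with ACBI-1 against 1 and 2 with DMSO, a ratio of 9.97 (95% exact interval 3.12 to 50.9, counting error only), and 3 counts in DND-41 in all. MLXIPL, the liver counterpart of MLXIP, had 0 counts in every library.

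**Figure D2:**
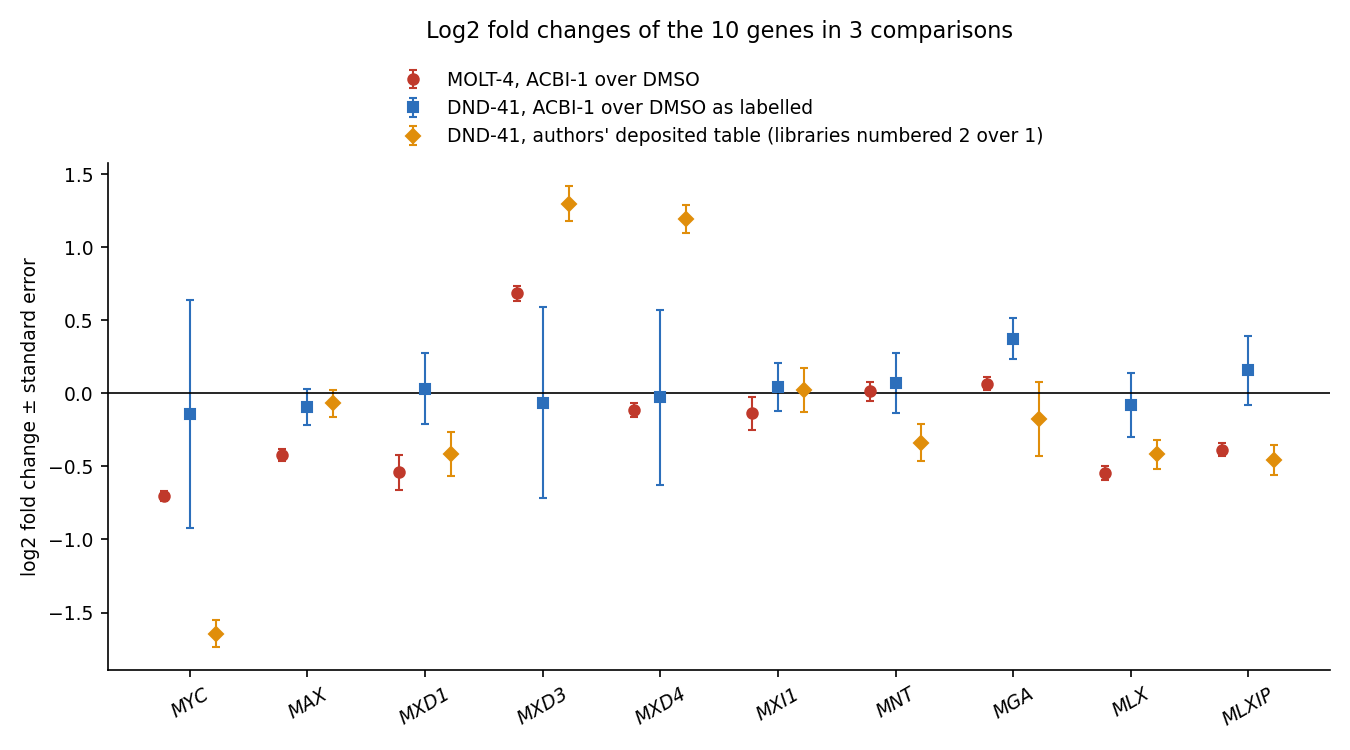
Log2 fold change with its standard error (vertical axis) of the 10 genes in MOLT-4 with ACBI-1 (red circles, edgeR), in DND-41 by the labels (blue squares, edgeR) and in the authors' deposited DND-41 table, libraries numbered 2 over 1 (orange diamonds). The standard error of MYC is 0.0352 in MOLT-4 and 0.78 in DND-41 by the labels, and the deposited DND-41 value of MYC is -1.64.

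In DND-41 by the labels, none of the 10 genes passed (edgeR, 0 of 10 at an adjusted p under 0.05 and 0 at an unadjusted p under 0.05; DESeq2, 0). Over all 14602 genes 0% were called, and 37 had an unadjusted p under 0.05. MYC was at 486 and 150 CPM under the ACBI-1 label and at 524 and 176 CPM under the DMSO label. The libraries numbered 1 were thus far above those numbered 2 in both groups, and the labelled log2 fold change was -0.14 with a standard error of 0.78. MAX varied little, at 132 and 121 CPM against 134 and 136 CPM (log2 fold change -0.09, SE 0.122).

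MXD3 and MXD4 in DND-41 went the other way from MYC across the numbers. MXD3 was at 24.2 CPM in ACBI-1 replicate 1 and 27.5 CPM in DMSO replicate 1, and at 63.5 and 65.1 CPM in the replicates numbered 2. MXD4 was at 46.2 and 46.7 CPM in the replicates numbered 1 and at 105 and 109 CPM in those numbered 2. By the labels the groups had nearly equal means, with log2 fold changes of -0.06 (SE 0.653) for MXD3 and -0.03 (SE 0.600) for MXD4.

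MGA was the gene nearest to a labelled difference in DND-41. It was at 92.2 and 84.0 CPM with ACBI-1 and at 72.8 and 63.6 CPM with DMSO, so that both treated libraries were above both solvent libraries. The log2 fold change of 0.38 (SE 0.140) did not pass (edgeR unadjusted p = 0.0526, adjusted p = 1). MXI1 in DND-41, at 19.6 and 20.3 CPM against 19.3 and 19.6 CPM, was nearly level over all 4 libraries. MXD1 (23.4 and 17.5 against 22.6 and 17.4 CPM), MNT (41.1 and 30.2 against 36.3 and 31.7 CPM), MLX (84.7 and 63.0 against 88.3 and 68.1 CPM) and MLXIP (101 and 72.8 against 88.9 and 66.7 CPM) were each higher in the library numbered 1 of both groups.

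The authors' deposited DND-41 table calls 7 of the 10 genes, 2 higher and 5 lower in libraries numbered 2, where 15.2% of 14883 genes with an adjusted p are higher and 21.6% lower. In that table MYC has a log2 fold change of -1.64 (SE 0.0915, DESeq2 adjusted p = 1.6e-69), MXD3 of 1.30 (SE 0.119, adjusted p = 5.84e-26) and MXD4 of 1.19 (SE 0.0971, adjusted p = 8.06e-33). The smaller calls of the deposited table are MLXIP at -0.46 (DESeq2 adjusted p = 5.51e-05), MLX at -0.42 (adjusted p = 0.000161), MXD1 at -0.42 (adjusted p = 0.0176) and MNT at -0.34 (adjusted p = 0.0238). MAX (-0.07), MXI1 (0.02) and MGA (-0.18) did not pass in the deposited table. Marker transcripts of both lineages moved with the same numbers. The T-lineage surface gene CD7 was at 1251 and 1228 CPM in the libraries numbered 1 and at 214 and 252 CPM in those numbered 2, and CD3G has a log2 fold change of 1.33 in the authors' deposited table. That table calls 4 of the 8 T-lineage markers higher and 2 lower. CD79A was at 689 and 735 CPM in the libraries numbered 1 and at 177 and 208 CPM in those numbered 2, while MS4A1 was at 0 in all of them. The summed B-lineage level over 5 genes was 178 to 739 CPM in DND-41 and 0.785 to 5.41 CPM in MOLT-4, and the part of these markers in the MYC difference was not tested.

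MYC, MXD1, MXD3, MLX and MLXIP are called in both deposited tables, which share no library, and each has the same sign in both. They are 5 of the 7 genes called in the DND-41 table and 5 of the 6 called in the MOLT-4 table, which calls 35.1% of 16234 genes. Over 14053 genes with an adjusted p in both tables, 3467 are called in both and 94.8% of these have the same sign, so the shared signs are near the background. Which treatment the DND-41 sign stands for cannot be told apart from the number of the libraries. A z test of the difference between the 2 deposited tables called MYC (DND-41 minus MOLT-4, -0.93, SE 0.0998, adjusted p = 1.36e-18), MAX (0.37, adjusted p = 0.0104), MXD3 (0.63, adjusted p = 0.000358) and MXD4 (1.32, SE 0.124, adjusted p = 4.26e-24), against 12.5% of all genes. MXD4 is higher in one deposited table (1.19) and at -0.13 (DESeq2 adjusted p = 0.22) in the other. Since the sign of the DND-41 table is not settled, the z test was also run with it turned, where 48% of all genes were called. The difference then changed direction for MYC (2.36), MXD3 (-1.97) and MXD4 (-1.07), was 0.50 for MAX, and passed for MXD1 (0.97), MLX (0.97) and MLXIP (0.85) too. Of these genes, MAX alone is called with the same direction of difference under both signs. MAX is near 0 in the deposited DND-41 table (-0.07) and at -0.43 in that of MOLT-4, so turning the DND-41 sign could hardly change that direction. The DND-41 table also compares library numbers, which may not stand for treatment. The MAX result is therefore no evidence that the lines responded differently to ACBI-1.

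By the labels, the interaction of line and treatment in an edgeR fit of all 8 libraries called 0 of the 10 genes, where 0.393% of 16047 genes were called. MAX alone had an edgeR unadjusted p under 0.05, with an interaction of -0.33 (SE 0.115) and an edgeR adjusted p of 0.417. DESeq2 also called 0. For MYC the interaction was -0.57 with a standard error of 0.892. That error includes the distance between the libraries numbered 1 and 2 of DND-41, and a p that misses the threshold here does not show that the lines responded alike.

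Levels were compared between genes as CPM per kb of exon, since longer transcripts give more counts. The length is that of all annotated exons of a gene merged, not of the transcript expressed. For MXD3 it includes the 1158 bases that overlap PRELID1. Close ranks therefore depend on the annotation, and the SDs do not cover this. By group mean MYC was the most abundant of the 10 in all 4 groups, followed by MAX and MLX. In MOLT-4 with DMSO, MYC reached 181 ± 3.33 CPM per kb, MAX 32.1 ± 0.442 and MLX 25.7 ± 0.177 (SD, n = 2), a 5.63-fold step from MYC to MAX and a 1.25-fold step from MAX to MLX. MXD4 (9.96 ± 0.00728), MLXIP (9.02 ± 0.0471), MXD3 (8.60 ± 0.131) and MGA (6.35 ± 0.0643) formed the middle of the order. MNT (3.99 ± 0.0151), MXI1 (2.05 ± 0.194) and MXD1 (1.53 ± 0.141) were the lowest. No neighbours in that order overlapped between libraries in this group.

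With ACBI-1 in MOLT-4, MXD3 moved up the order past MLXIP and MXD4, to 13.8 ± 0.296 CPM per kb beside 9.19 ± 0.0672 for MXD4. MLXIP (6.89 ± 0.300) and MGA (6.64 ± 0.297) then overlapped. MYC stood at 111 ± 2.0 and MAX at 23.9 ± 0.123 CPM per kb. For each unit of MYC transcript per length there was 0.177 and 0.178 of MAX in the DMSO libraries and 0.213 and 0.217 in the ACBI-1 libraries, the log2 fold changes being -0.70 for MYC and -0.42 for MAX. In DND-41 the per-length ratio of MAX to MYC was 0.184 and 0.174 in the libraries numbered 1 and 0.544 and 0.525 in those numbered 2.

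**Figure D3:**
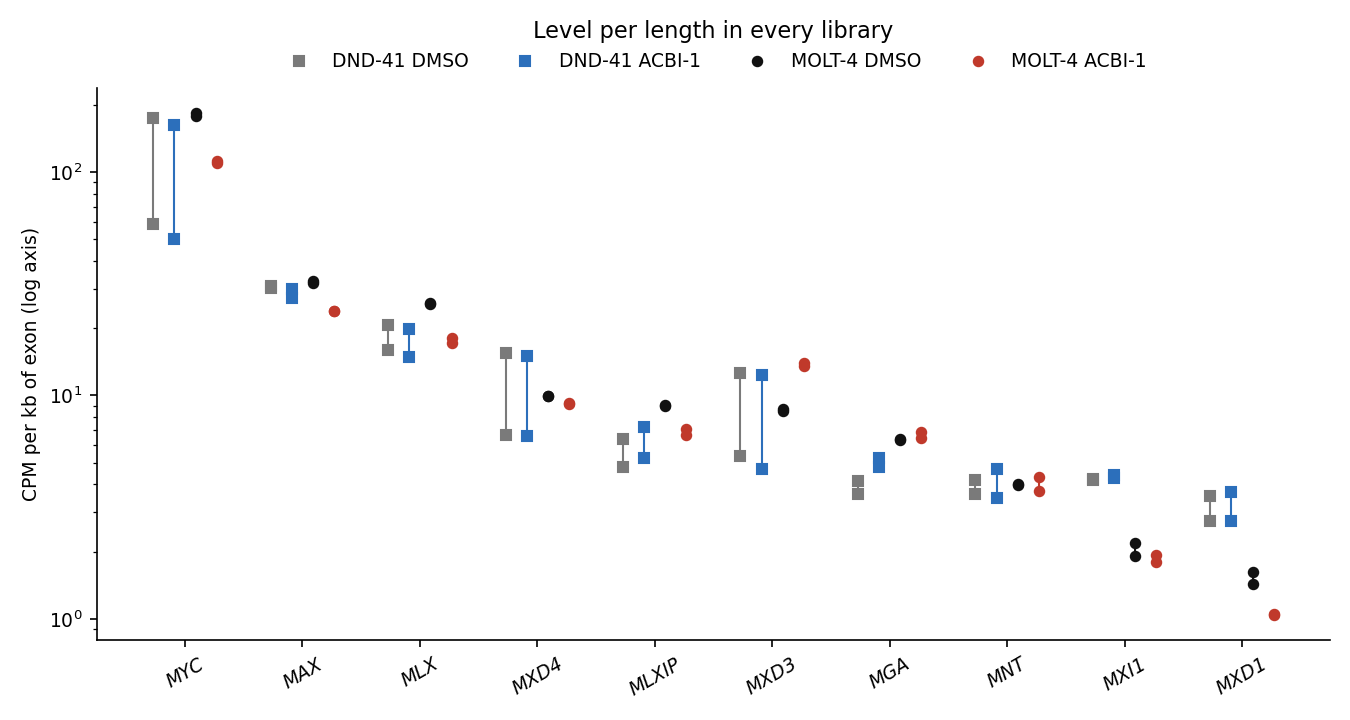
Level per kb of exon (log axis) of the 10 genes in every library, ordered by the MOLT-4 DMSO mean, with squares for DND-41, circles for MOLT-4 and a line joining the 2 libraries of a group. By group mean MYC is highest and MXD1 lowest in each group, and MXD3 in MOLT-4 climbs from 8.60 to 13.8 CPM per kb with ACBI-1.

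Between the lines in DMSO, MXD1 and MXI1 were lower in MOLT-4 than in DND-41, and MGA and MLXIP were higher. The log2 fold changes, MOLT-4 over DND-41, were -1.04 (edgeR adjusted p = 0.0082, SE 0.204) for MXD1, -1.04 (SE 0.130, adjusted p = 0.00145) for MXI1, 0.72 (SE 0.102, adjusted p = 0.00241) for MGA and 0.69 (SE 0.190, adjusted p = 0.0287) for MLXIP. The 4 calls among 10 genes compare with 39.5% of all 16047 genes, so they are near the background, and line and count table cannot be told apart. The MOLT-4 count columns carry a suffix, redo, that the DND-41 columns lack and that the sources used here do not explain. Without MOLT-4 DMSO replicate 1, 2 of the 10 passed. MYC itself gave 0.63 with a standard error of 0.632 and did not pass (edgeR adjusted p = 0.455), its DND-41 DMSO libraries being at 524 and 176 CPM.

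The balance of MYC to the MXD genes was taken per library as the log2 of MYC CPM over the summed CPM of MXD1, MXD3, MXD4 and MXI1. In MOLT-4 it stood at 1.15 and 1.13 after ACBI-1 against 2.06 and 1.98 in the solvent. The group means were 1.14 ± 0.0200 and 2.02 ± 0.0526 (SD, n = 2), a difference of -0.88, and the groups did not overlap. As a ratio of levels per kb of exon, MYC was 8.39 and 7.94 times the summed MXD level in the solvent and 4.32 and 4.25 times with ACBI-1. The score carries no p, since 2 libraries against 2 cannot pass a permutation test at 0.05. The summed MXD level was 132 and 135 CPM in DMSO and 152 and 151 CPM with ACBI-1. That rise came from MXD3 (means of 44.3 and 71.1 CPM). The means of MXD1 (9.70 and 6.65), MXD4 (70.3 and 64.9) and MXI1 (9.45 and 8.58) were lower with ACBI-1. With the mean of log2 CPM in place of the sum, the balance difference was -0.67, beside -0.70 for MYC alone. The part of the neighbour PRELID1 in the MXD3 counts was not tested.

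In DND-41 the balance was 2.10 and -0.46 under the ACBI-1 label against 2.17 and -0.27 under the DMSO label. The labelled difference was -0.13, small beside group SDs of 1.81 and 1.72. The mean of libraries numbered 2 minus that of libraries numbered 1 was -2.5 on this log2 scale. Per kb of exon, MYC was 8.44 and 8.85 times the summed MXD level in the libraries numbered 1. In those numbered 2 it was 1.46 and 1.67 times that level. By CPM, without the length, MYC was 0.727 and 0.832 times the summed MXD level in the libraries numbered 2. Which of them is higher there thus depends on the length used.

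**Figure D4:**
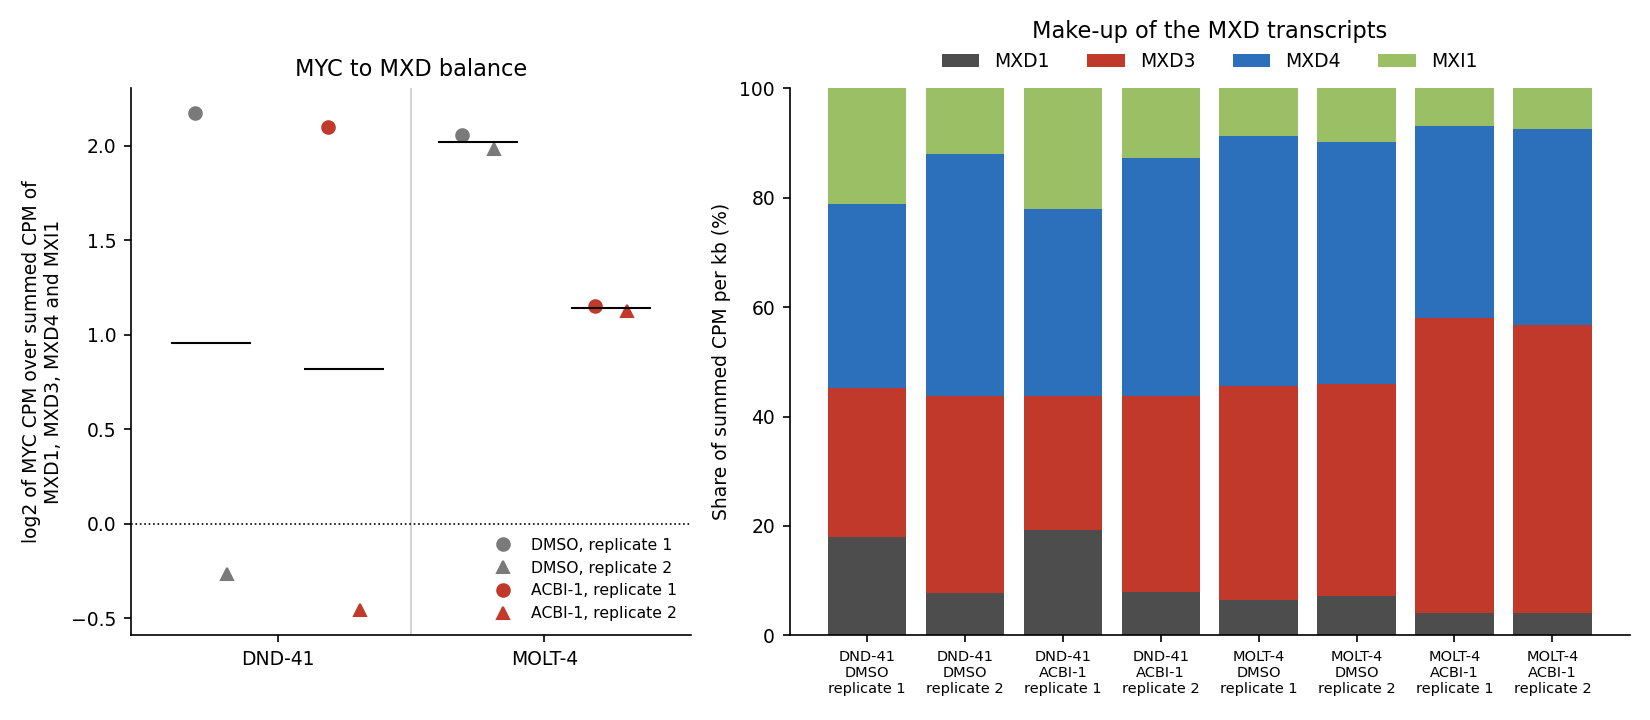
Left, log2 of MYC CPM over the summed CPM of MXD1, MXD3, MXD4 and MXI1 in each library, with DMSO in grey, ACBI-1 in red, circles for replicate 1, triangles for replicate 2 and bars for group means. Right, share of each gene in the summed level per kb of the same 4 genes: the MXD3 share in MOLT-4 goes from 39.0% and 38.7% with DMSO to 53.9% and 52.7% with ACBI-1.

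The make-up of the MXD transcripts differed as well. In MOLT-4, MXD3 made up 39.0% and 38.7% of their summed level per length with DMSO and 53.9% and 52.7% with ACBI-1. The MXD4 share was 45.7% and 44.3% in the solvent and 35.2% and 35.8% with ACBI-1, although the MXD4 level itself hardly differed. In DND-41, MXD1 and MXI1 held 18.1% to 19.2% and 21.2% to 22.1% of the sum in the libraries numbered 1, but 7.81% to 7.99% and 12.1% to 12.8% in those numbered 2.

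Genes that work with the network were described by lists, chosen with earlier results of these data known. Of 33 genes known to be induced by MYC, 29 fell, 1 rose and 3 did not pass in MOLT-4 (87.9% lower, against 30.2% of all genes), with a median log2 fold change of -0.57. ODC1, the first enzyme of polyamine synthesis, was at -1.0 (edgeR adjusted p = 6.55e-27), the nucleolar protein gene NOLC1 at -0.82, the spermidine synthase gene SRM at -0.80 and the chaperone gene HSPD1 at -0.70. TERT, the telomerase reverse transcriptase that MYC and MAX are known to activate and MXD1 to repress, was the exception: it rose from 9.81 and 9.29 CPM to 17.4 and 15.7 CPM (log2 fold change 0.80, edgeR adjusted p = 3.47e-09). In the authors' deposited DND-41 table, TERT is again the 1 higher gene (1.05) and 28 of the 33 are lower, beside 21.6% of all genes. By the labels in DND-41, edgeR called 0 of the 33 (median log2 fold change -0.07), and 0% of all genes. A list of MYC targets chosen with these results known is not independent evidence of its direction.

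The E-box was also counted for these genes. Of the MYC-induced list, 28 had a RefSeq promoter window, and 16 of them hold CACGTG (57.1%), beside 2396 of all 27305 genes with a window (8.77%). The list holds known MYC targets, so this share can follow from how the list was chosen and is no test. Among the 9277 genes that were tested in MOLT-4 and have a window, 1208 hold the motif (13%), and 39.6% of these were lower and 27.6% higher with ACBI-1. The same shares over all 9277 were 34.6% and 29.1%. The median log2 fold change was -0.05 for genes with the motif and -0.02 for all.

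Of 7 measured genes known to be repressed by MYC, 2 rose in MOLT-4, 2 fell and 3 did not pass, so the 28.6% in each direction is that of the background (28.2% higher and 30.2% lower). The cyclin-dependent kinase inhibitor genes CDKN1B (0.49, edgeR adjusted p = 1.6e-10) and CDKN2C (0.44, adjusted p = 3.81e-12) rose, while GADD45B (-1.05) and NDRG1 (-0.23) fell. The median of the list was -0.21. By the authors' deposited table for DND-41, of 8 genes 4 are higher and 2 lower in libraries numbered 2 (all genes, 15.2% and 21.6%), with CDKN1A at -1.61 and NDRG1 at 1.27. By the labels in DND-41, edgeR called 0 of these 8, and 0% of all genes.

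The cofactor lists had calls in both directions, at shares near or below those of all genes (28.2% higher and 30.2% lower). Among 14 coactivator genes of MYC, 5 rose and 4 fell in MOLT-4 (35.7% and 28.6%), with the acetyltransferase CREBBP at 0.41, RUVBL2 and RUVBL1, which encode paired ATPases, at -0.28 and -0.27, and the remodeller EP400 at -0.28. Of 15 SIN3-HDAC corepressor genes, 5 rose and 5 fell (33.3% each), and SIN3A, the scaffold that MXD proteins bind, rose by 0.25 on the log2 scale. HDAC2 was at -0.24, ARID4A at 0.38 and BRMS1 at -0.31. Of 10 genes of the Polycomb complex that holds MGA, 2 rose and 2 fell (20% each): PCGF6 was at 0.29, CBX1 at 0.10, CBX3 at -0.22 and TFDP1 at -0.11. Medians were -0.04, 0.03 and -0.04 for these lists.

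Of 13 genes that act on MYC protein stability, 1 rose, 4 fell and 8 did not pass in MOLT-4. The 30.8% that fell is close to the 30.2% of all genes, and the 7.69% that rose is below their 28.2%. The fallen genes included USP36 (-0.51), a nucleolar deubiquitinase, and SET (-0.31), an inhibitor of the phosphatase PP2A, while the deubiquitinase gene USP28 rose (0.28). FBXW7, the ubiquitin ligase subunit that recognises phosphorylated MYC, had a log2 fold change of -0.04 (edgeR adjusted p = 0.511, SE 0.0546) in MOLT-4 and of 0.69 in the authors' deposited DND-41 table. MYC protein was not measured.

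Among 7 other E-box factors of the same zipper class tested in MOLT-4, 1 fell (14.3%, against 30.2% of all genes). Of the rest, 3 rose (42.9%, against 28.2% of all genes) and 3 did not pass. TFAP4, itself a MYC target and so on that list too, fell (-0.92, edgeR adjusted p = 3.78e-17), and SREBF1 (0.26), TFE3 (0.27) and USF1 (0.18) rose. Of 13 genes that control MYC transcription in T cells, 6 rose and 6 fell (46.2% each, against 28.2% and 30.2% of all genes). NOTCH1, whose active form binds a distant MYC enhancer in T cells, went from 837 and 835 CPM to 186 and 173 CPM (log2 fold change -2.22, edgeR adjusted p = 3.21e-38). NOTCH3 (-3.62), GATA3 (-1.20) and TAL1 (-1.03), all regulators of early T-cell genes, fell as well. In DND-41 NOTCH1 was at 792 and 661 CPM in the libraries numbered 1 and at 344 and 345 CPM in those numbered 2.

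**Figure D5:**
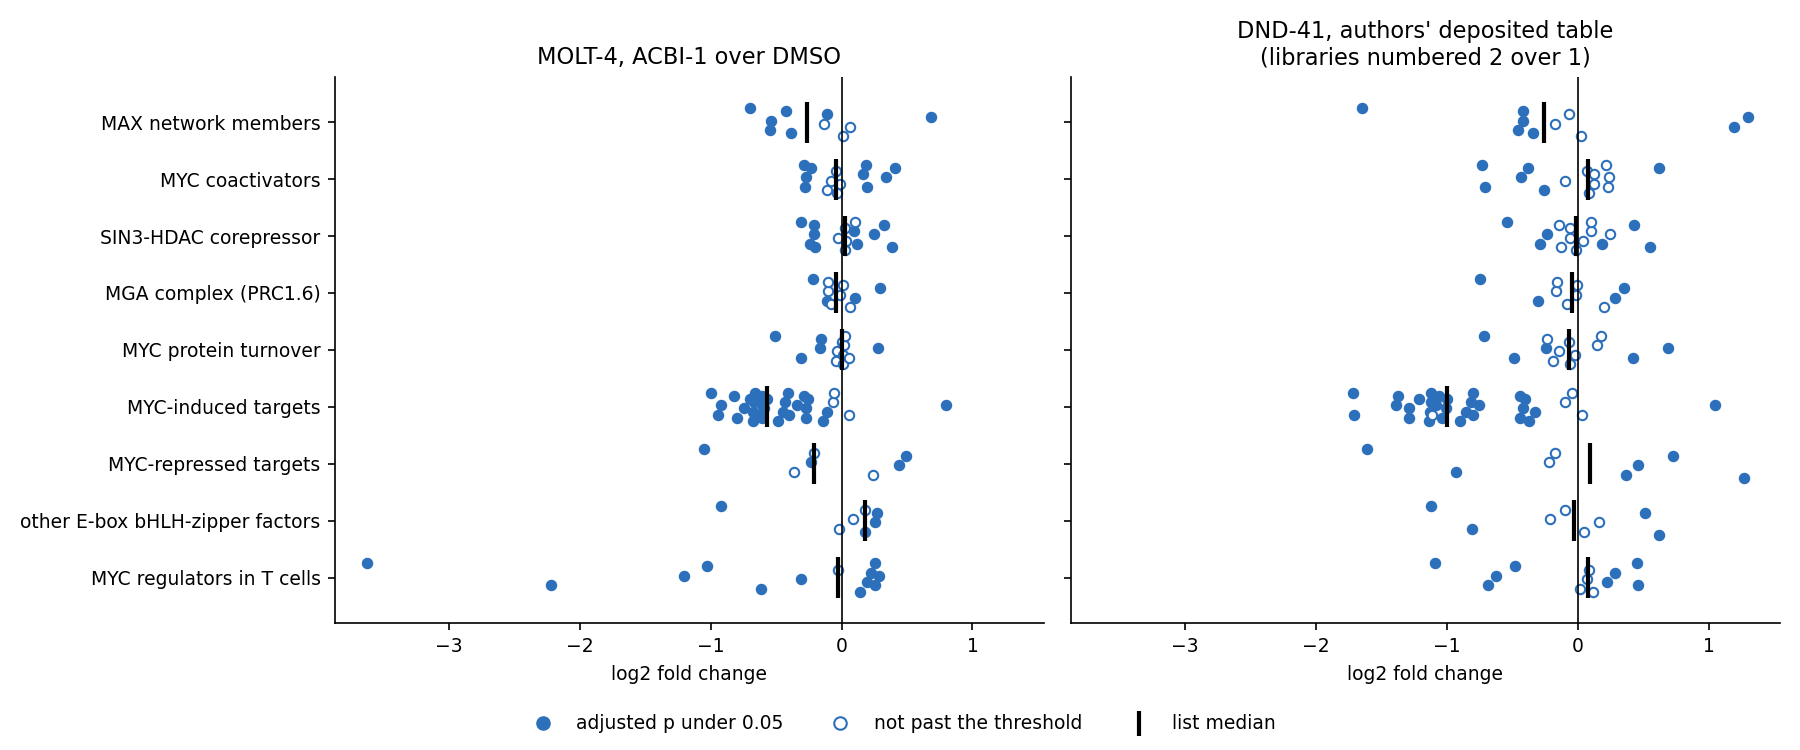
Log2 fold change of each gene in 9 lists (horizontal axis, same scale in both panels) in MOLT-4 with ACBI-1 (left) and in the authors' deposited DND-41 table, libraries numbered 2 over 1 (right), with filled points past an adjusted p of 0.05 and a black bar at each list's median. The MYC-induced list has medians of -0.57 and -1.0, and the cofactor lists are spread around 0.

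The genes whose pattern over the 8 libraries was most like that of MYC were found by the root mean square difference of log2(CPM + 0.5), each gene centred on its own mean. Among 10167 genes with a mean of at least 5 CPM these were MRM1 (0.0957), MRTO4 (0.113), CLUH (0.118), RRS1 (0.13) and RPF2 (0.131), where MYC itself spans 1.86 log2 units. MRM1 encodes a methyltransferase of mitochondrial ribosomal RNA, and MRTO4, RRS1 and RPF2 encode assembly factors of the large ribosomal subunit. Closest to MXD4 were ST3GAL5 (0.127), TRIM38 (0.144), FOXO4 (0.149), DAAM1 (0.169) and BDH2 (0.178). Closest to MXI1, which differed mainly between the lines, were MSMO1 (0.0426), CCDC18 (0.0626), ZNF649 (0.0813), USP42 (0.0815) and LINC00938 (0.0926). The 8 libraries share their line and their number, so the likeness is a description.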

How the data were processed

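Total RNA of 8 libraries was sequenced with strand-specific paired-end reads, per the labels' protocols. The submitters' processing notes name the build hg19, STAR 2.5.2a, featureCounts and DESeq2 1.12.4. The authors deposited counts per Ensembl gene for 63677 genes, and 0 columns were unassigned. The authors also deposited log2 fold changes with standard errors, a Wald score (fold change over its error), and a p-value with its adjusted p-value per gene.

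Counts were tested with edgeR 4.0.16 in R 4.3.3 (TMM, filterByExpr, quasi-likelihood F-test, 2-sided, Benjamini-Hochberg over all genes, threshold 0.05), each line alone, and with 1 fit of all 8 libraries for the interaction and the lines. DESeq2 1.42.0, other scalings, filters, a replicate block and leaving out each library were alternatives. The z test of the deposited tables was added after the data were seen. The 10 genes and all lists were chosen with earlier results of these data known. Named genes were the 10, TXNIP, ARRDC4, per list up to 4 with the smallest adjusted p in MOLT-4, and the 5 most alike; TERT, CDKN1A and FBXW7, and NDRG1 in DND-41, were singled out after their values were seen. Genes with low or no counts (MLXIPL, MS4A1) and annotated neighbours of the 10 (PRELID1, RAB24, SNRNP27, PSMC3IP) are named outside that rule. Some listed genes are not reported here. Exon lengths and overlaps came from GENCODE 29 (GRCh38), which held 52526 of the gene identifiers, so no coordinates of the counted features are given; promoter windows came from RefSeq. Self-tests on simulated counts were run. Depth was 21308737 to 22067644 counts per library.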

Additional observations from a re-analysis of the deposited data

How the results depend on the processing

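In MOLT-4, 6 or 7 of the 10 genes passed under 10 of the 11 alternatives (2 other scalings, 2 other filters, DESeq2, a replicate block and each library left out), and 1 with the spread shared by all 8 libraries. MXD4 turned to 0.0061 under total counts. The replicate block gave 3 genes in place of 0 in DND-41 by the labels (MYC -0.16, MGA 0.38, MLXIP 0.16) and 7 in place of 0 for the interaction. The share of all genes called with the block is not given here, so these counts cannot be set against a background. Deviations of same-numbered libraries correlated at 0.880 in DND-41 and 0.0043 in MOLT-4; with 2 numbers per line the numbers do not establish a pairing. Between the lines in DMSO, 5 genes passed with the block, and 2 to 5 with 1 library left out, 2 being without MOLT-4 DMSO replicate 1. The MOLT-4 balance difference was -0.82 with MNT and MGA added, -0.93 per exon length and -0.67 as a mean of log2 CPM, and -0.92 to -0.84 with 1 library left out. In DND-41 the balance difference by the labels ran from -1.41 to 1.15 with 1 library left out. With 1 library left out, the lone library of its group is assumed to vary like the others.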
